A study of Drosophila melanogaster x Drosophila sechellia and Drosophila melanogaster and Drosophila sechellia with 12 samples.

Results

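RNA editing on the D. melanogaster allele was followed in the heads of adult female hybrid flies, using only the reads that had been assigned to the Drosophila melanogaster sequence. The comparison set 3 libraries of F1 hybrids from D. melanogaster mutant for Adar crossed with Drosophila sechellia, called Adar F1, against 3 libraries of F1 hybrids from the same pair of species without that mutation, called F1. A site was taken when each of these 6 libraries held at least 50 D. melanogaster reads there, which kept 621 of the 1058 sites in the tables. Its level is the percentage of G among the A and G reads of that allele. D. sechellia reads play no part in this level, so a shift in the mix of alleles cannot move it as long as reads were assigned to the right species.

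The series held 12 libraries of heads from flies aged 0 to 2 days. They were made by mmPCR-seq, a method that amplifies a panel of editing loci from cDNA in microfluidic multiplex reactions and counts the bases read at each site. Beside Adar F1 (n = 3) and F1 (n = 3) there was a control mixture of the parent species, called mixed parents (n = 2), D. melanogaster (n = 2) and D. sechellia (n = 2). The labels name neither the Adar allele nor the stock that carried it, and only the D. melanogaster parent is labelled mutant. Whether the replicates are separate cultures or pools of flies is not in the labels, so a p-value here measures only the spread of libraries, which may be technical.

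Adar is the enzyme that deaminates adenosine to inosine in double-stranded RNA, and an inosine is read as G after reverse transcription. In flies its best-known substrates are transcripts of the nervous system, among them those of ion channels and of proteins of synaptic release, where editing can recode the protein. Editing often strikes several adenosines of the same RNA duplex, so sites come in clusters. The Drosophila Adar gene lies on the X chromosome, and hybrid females carry an X of each species. An Adar F1 female therefore still has the Adar gene of D. sechellia, and the D. melanogaster transcripts measured here can be edited by that enzyme. The abundance of Adar RNA was not measured, so the label of the mutant libraries has no check of its own in these data.

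Adar F1 libraries held a median of 270, 283 and 237 D. melanogaster reads per selected site, and F1 libraries 198, 205 and 182. With 50 reads, a level of 20% has a 95% Wilson interval from 11.2 to 33.0%, and with 230 reads one from 15.3 to 25.6%. These intervals cover counting error only, since PCR reads without molecular identifiers are not independent molecules. Of the sites not selected, 321 fell short of 50 reads in Adar F1 alone, 33 in F1 alone and 83 in both groups. Among the 321, no Adar F1 library had any D. melanogaster read at 148 sites. The 19 sites with a lowest coverage of 50 to 54 reads had a median level of 9.96%, and the 9 sites just left out, at 45 to 49 reads, one of 14.8%.

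Coverage differed between the groups in its pattern as well. The log2 D. melanogaster coverage over the selected sites correlated by 0.968 to 0.978 among Adar F1 libraries and by 0.950 to 0.965 among F1 libraries, but by only 0.481 to 0.533 across the 2 groups. In this design the difference in coverage and the mutation cannot be told apart, nor can other sequence differences of the mutant stock. As a check of read assignment, the D. sechellia libraries, which should hold no such reads, had a median of 2 D. melanogaster-assigned reads per selected site in both libraries together. At 53 of the 621 sites they had 50 or more, up to 369, so there the allele is not cleanly separated. D. melanogaster reads made up 95% or more of the reads in F1 at 155 selected sites.

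One Adar F1 library stood apart from its group. Replicate 1 had the highest level of the 3 Adar F1 libraries at 278 of the tested sites, against 92 for replicate 2 and 133 for replicate 3. The same count was 210, 141 and 152 for F1 replicates 1, 2 and 3. Results are therefore also given without Adar F1 replicate 1 where this matters.

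The mean level of the D. melanogaster allele over the 621 sites was 16.4%, 14.6% and 14.9% in the Adar F1 libraries, against 17.5%, 16.7% and 16.8% in the F1 libraries. All 3 Adar F1 libraries lay below all 3 F1 libraries, with Adar F1 replicate 1 closest to them. The group means were 15.3% ± 0.932 in Adar F1 and 17.0% ± 0.474 in F1 (SD, n = 3 each), a difference of -1.70 percentage points. An exact permutation test over libraries, two-sided, returned p = 0.1, and no smaller p is possible with 3 libraries on each side. Without Adar F1 replicate 1 the difference was -2.22 points.

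At 598 of these sites the mixed parents and the D. melanogaster libraries also had at least 50 D. melanogaster reads each. There the mean level was 15.3% ± 0.919 in Adar F1 and 17.0% ± 0.454 in F1 (SD, n = 3 each), with 16.9% ± 0.392 in the mixed parents and 17.4% ± 0.105 in D. melanogaster (n = 2 each). F1, mixed parents and D. melanogaster thus spanned 16.6 to 17.6% over their 7 libraries, and the Adar F1 libraries stood at 16.4%, 14.6% and 15.0%.

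**Figure D1:**
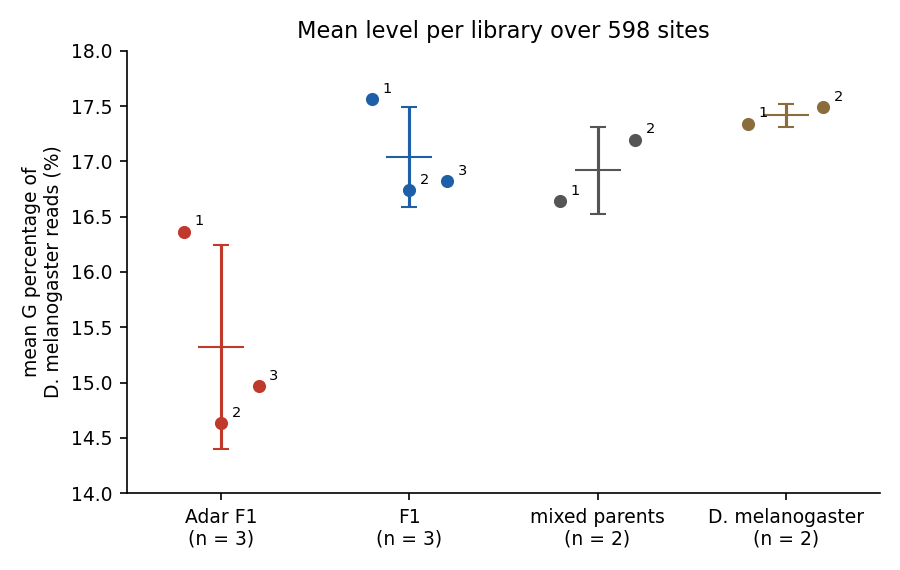
Mean G percentage of D. melanogaster reads over the 598 sites covered in all 4 groups (y axis, from 14 to 18%), by group (x axis); points are libraries with their replicate numbers, the dash is the group mean and the bar its SD. The 3 Adar F1 libraries sit between 14.6 and 16.4%, below the 7 other libraries at 16.6 to 17.6%, and Adar F1 replicate 1 is the highest of its group.

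The allele was tested site by site at the 503 selected sites whose level averaged at least 1% over the 6 libraries. The other 118 averaged less, 2 of them without any G read, and were not tested. A quasi-binomial logistic regression, which scales the counting error of each site by the spread between its libraries, was used with Benjamini-Hochberg adjustment over all 503 sites at a threshold of 0.05. Of the 503 sites, 121 changed (24.1%), of which 101 fell in Adar F1 (20.1%) and 20 rose (3.98%). The changed sites lay in 67 clusters, where a cluster joins sites less than 1000 bases from the next. Before adjustment, 181 sites had p under 0.05.

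All Adar F1 libraries lay below all F1 libraries at 152 tested sites (30.2%) and above them at 51 (10.1%), and of the 121 changed sites 119 did not overlap, against a background of 40.4% of tested sites. Since the sites were called on these same libraries, nothing is read from that contrast. The mean was lower in Adar F1 at 339 sites, or 67.4%, and the median change over all 503 was -1.22 percentage points. The number of calls moved with single libraries. Without Adar F1 replicate 1 it was 194, with 162 falls and 32 rises, and without F1 replicate 1 it was 66, with 51 falls and 15 rises.

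**Figure D2:**
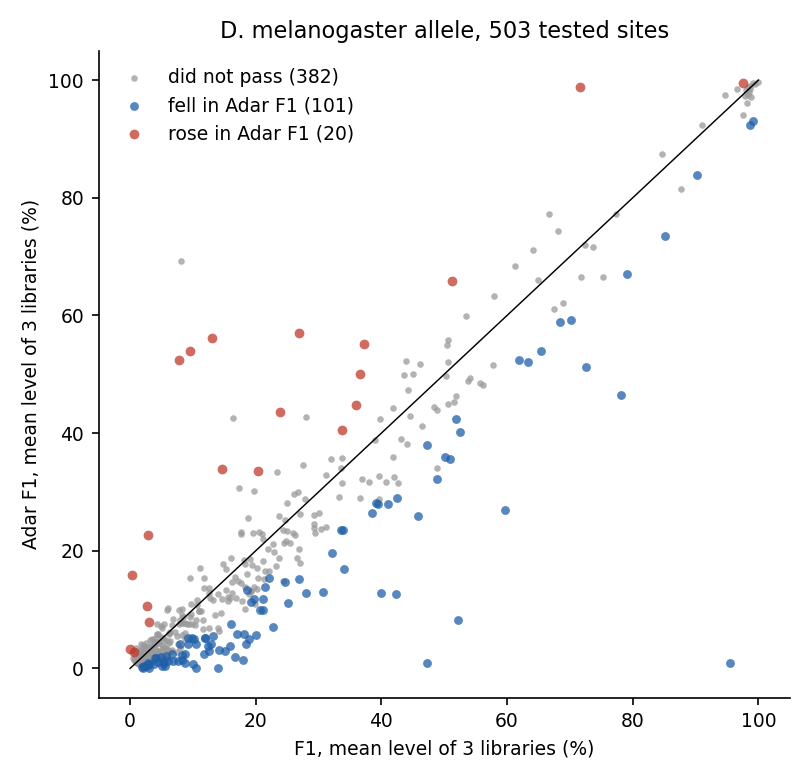
Mean level of the D. melanogaster allele in Adar F1 (y axis, %) against F1 (x axis, %) at the 503 tested sites, each point the mean of 3 libraries per group; blue points fell (101), red points rose (20) and grey points did not pass. Most blue points lie in a band below the diagonal, and a few red points lie far above it.

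The same test between groups without the mutation gives only a loose background, with 3 libraries against 2 and its own set of covered sites. Between F1 and the mixed parents, on the same allele, 2 of 736 sites passed (0.272%), and both lay within 50 bases of each other on 3R. At 3R 1062097 F1 stood at 67.4% ± 3.98 (SD, n = 3) and the mixed parents at 43.8% ± 2.60 (n = 2), and at 3R 1062054 F1 stood at 90.2% ± 2.52 and the mixed parents at 75.5% ± 0.940. Without mixed parents replicate 1 it became 0, with 48 sites at an unadjusted p under 0.05. It was 1 without mixed parents replicate 2 and 5 without F1 replicate 1. This comparison shares the F1 libraries with the one above. Median D. melanogaster coverage of the selected sites was 156 and 160 reads in the mixed parents, against 270, 283 and 237 in Adar F1. With fewer libraries and lower coverage, its 0.272% is not a like measure to the 24.1% of the main comparison.

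Over the 486 tested sites with an F1 level of at least 1%, Adar F1 stood at a median of 86.0% of F1. The 3 Adar F1 libraries gave 91.4%, 78.5% and 81.3% when each was set against the F1 mean. Each F1 library set against the other F1 libraries gave 104.1%, 97.7% and 97.9%. All Adar F1 libraries were thus lower than every F1 library on this measure, and it was 81.2% without Adar F1 replicate 1.

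Among the 101 sites that fell, the median level was 5.48% in Adar F1 and 18.4% in F1, and the median change was -9.46 percentage points. The extent of the fall was uneven. The median over the 486 sites above was 86.0% of F1. Since the 101 sites were called on these same libraries, the selection favours large falls among them. Their median remaining level was 43.0% of F1, with quartiles of 22.1 and 65.9%. In Adar F1, 30 of these sites stood below 25% of their F1 level, 33 between 25 and 50%, 25 between 50 and 75%, and 13 at 75% or more. Adar F1 replicate 1 was the highest of its group at 64 of the 101 sites, and its median remaining level there was 52.1% of F1, against 39.2% and 40.5% in replicates 2 and 3.

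The 20 sites that rose had a median level of 44.2% in Adar F1 and 17.5% in F1, and a median change of 15.0 points. They lay in 15 clusters, and 11 of them more than doubled. None of the 101 falls and 2 of the 20 rises came with a shift of over 30 percentage points in the share of D. melanogaster reads. Sites with 50 or more D. melanogaster-assigned reads in the D. sechellia libraries made up 21 of the falls and 3 of the rises. They were 43 of the 503 tested sites, so 55.8% of them changed, against 21.1% of the other tested sites, and the part of read assignment in this was not tested. Sites of a cluster are not independent here. The X cluster from 1267357 to 1267647 held 10 of the 43 sites, with 6 falls, and the X cluster from 1272308 to 1272317 held 4 of the falls. Without the 43 sites, an alternative added after the data were seen, 85 of 460 sites changed, 70 falling and 15 rising.

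By level, averaged over the 6 libraries, calls were least frequent at both ends of the scale. Of 191 sites under 5%, 24 fell and 2 rose, and of 23 sites at 80% or more, 3 fell and 2 rose. Between these ends, 40 of 144 sites at 5 to 20% fell and 4 rose, 25 of 113 at 20 to 50% fell and 11 rose, and 9 of 32 at 50 to 80% fell and 1 rose. The median change was -0.505 points under 5%, -3.05 at 5 to 20%, -3.66 at 20 to 50%, -5.05 at 50 to 80% and -0.188 at 80% or more. Relative to F1, the median Adar F1 level was 80.4%, 75.5%, 89.1%, 91.0% and 99.8% in these classes, so the median proportional loss was largest at 5 to 20% and the median loss in points at 50 to 80%. No test between classes was run.

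The sites were also sorted by their level in the separate D. melanogaster libraries, which took no part in the comparison. This gave a like picture for falls but not for rises. The median Adar F1 level was 89.0% of F1 at 175 sites under 5%, 75.1% at 138 sites of 5 to 20%, 83.9% at 122 sites of 20 to 50%, 90.5% at 44 sites of 50 to 80% and 99.8% at 22 sites of 80% or more. Falls made up 9.71%, 26.8%, 23.8%, 34.1% and 13.6% of these classes. Rises numbered 8, 2, 7, 2 and 1 in them, against 2, 4, 11, 1 and 2 by the mean over the 6 libraries. That mean includes the Adar F1 levels themselves. At 18 of the 503 tested sites, 95% or more of the reads in the D. melanogaster libraries were G, and such reads do not tell editing from a G in the genome. Of these 18, 3 fell and 1 rose.

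**Figure D3:**
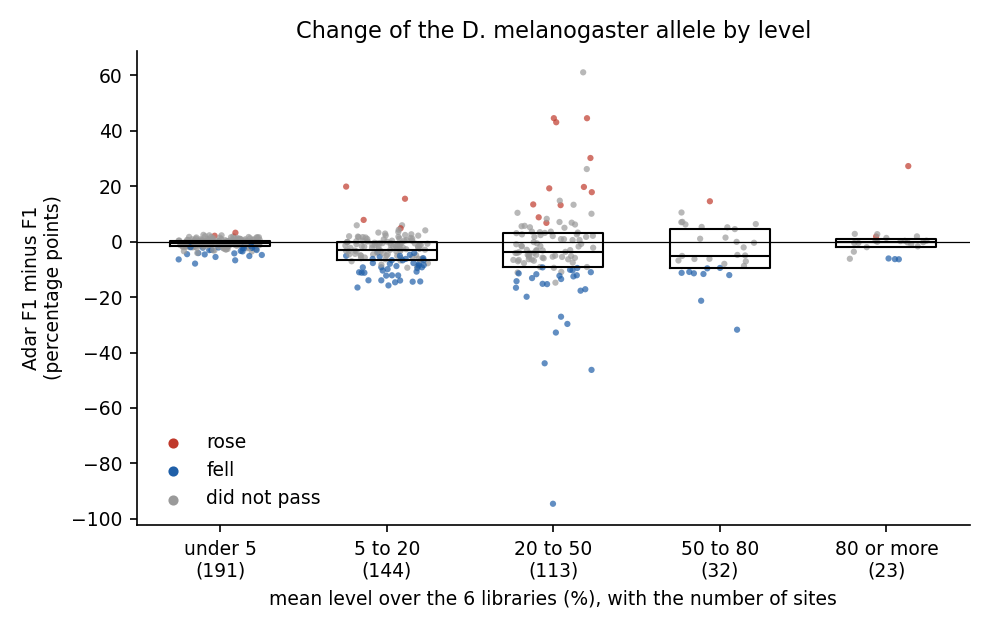
Change of the D. melanogaster allele (Adar F1 minus F1, percentage points, y axis) by the mean level over the 6 libraries (x axis, with the number of sites per class); points are sites (red rose, blue fell, grey did not pass), and boxes give the quartiles and the median. The medians run from -0.505 points under 5% to -5.05 points at 50 to 80%, and the class at 80% or more lies near 0 with a median of -0.188.

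Falls were found on every chromosome arm with tested sites. They made up 27.0% of 111 sites on X, 23.1% of 78 on 3L, 21.9% of 137 on 2R, 18.5% of 65 on 2L, 8.57% of 105 on 3R and 2 of 7 on chromosome 4. These shares lean on a few clusters. A single cluster held 14 of the 30 falls on 2R, and another held 8 of the 18 on 3L. Of the 30 falls on X, separate clusters held 6, 6 and 4. Of the 20 rises, 10 lay on 2R, 6 on 2L, 2 on 3L, 2 on X and 0 on 3R and chromosome 4. All 7 sites on chromosome 4 were lower in Adar F1. Sites in clusters of 8 or more fell in 44 of 181 cases and rose in 7. Those in clusters of 3 to 7 fell in 35 of 224 cases and rose in 9, and those in clusters of 1 or 2 fell in 22 of 98 cases and rose in 4. Differences between arms or cluster sizes were not tested.

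The largest fall, on 2R at 6708460, was nearly a switch. The D. melanogaster allele read as G in 0.651%, 0.627% and 1.60% of reads in Adar F1, against 96.6%, 95.98% and 94.0% in F1. The groups lay at opposite ends of the scale, with a difference of -94.6 ± 0.846 percentage points (SE; adjusted p = 2.79e-10). The level was 95.6% ± 3.71 in the mixed parents and 95.3% ± 0.120 in D. melanogaster, so this site is one of those where a G in the genome and complete editing cannot be told apart.

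The next falls were at sites of intermediate level. At 2R 3467301 the levels were 2.03%, 0% and 0.806% in Adar F1, against 59.8%, 53.2% and 28.6% in F1 (adjusted p = 5.29e-05). The library at 0% had 125 reads, which allow a level of up to 2.4%. F1 libraries varied widely among themselves here, yet the lowest of them remained far above all Adar F1 libraries. D. melanogaster stood at 49.6% ± 1.99 and the mixed parents at 35.4% ± 9.35 (SD, n = 2 each).

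At X 19228498 the levels were 10.8%, 10.4% and 3.57% in Adar F1, against 50%, 52.1% and 54.4% in F1. The difference of -43.9 ± 2.67 points (SE; adjusted p = 3.86e-05) was many times the spread of either group. Reads were few at this site, 56 to 67 per Adar F1 library and 57 to 78 per F1 library. The level was 66.4% ± 0.399 in the mixed parents and 64.5% ± 4.13 in D. melanogaster.

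Some falls left a substantial level, and there Adar F1 replicate 1 often fell least. At 3L 9826401 the levels were 40.0%, 21.99% and 18.6% in Adar F1, against 59.1%, 65.6% and 54.3% in F1 (adjusted p = 0.00506; 0.0581 without F1 replicate 2). At 3L 9826469, in the same cluster, they were 64.2%, 36.0% and 39.1% in Adar F1, against 75.8%, 83.1% and 75.7% in F1 (adjusted p = 0.00526; 0.0573 without F1 replicate 2). Adar F1 replicate 1 lay well above the other Adar F1 libraries at both, without reaching the F1 libraries. At 3L 9662076 the levels were 56.7%, 52.7% and 44.4% in Adar F1, against 76.2%, 74.0% and 67.5% in F1 (adjusted p = 0.00752; 0.0652 without F1 replicate 1).

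At 2L 6002117 the D. melanogaster allele stood at 11.8%, 10.5% and 16.2% in Adar F1, against 46.5%, 36.7% and 36.5% in F1 (adjusted p = 0.000521). This was below the level of every other group, with 51.8% ± 2.27 in D. melanogaster and 39.2% ± 5.46 in the mixed parents. At X 21500480 the levels were 33.9%, 29.8% and 32.8% in Adar F1, against 47.9%, 47.7% and 50.7% in F1 (adjusted p = 0.000197). Replicates agreed within 5 points in both groups, over 702 to 925 and 268 to 342 reads. All reads there were D. melanogaster-assigned in both groups, and the D. sechellia libraries held 43 such reads, so the alleles are not separated as well as elsewhere.

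The remaining 2 of the 10 largest falls lay in a dense cluster on 2R, at 13262562 and 13262386. At 13262562 the levels were 27.1%, 24.6% and 26.0% in Adar F1, against 46.6%, 47.1% and 43.5% in F1 (adjusted p = 1.43e-05). At 13262386 they were 16.1%, 13.9% and 8.97% in Adar F1, against 33.5%, 26.6% and 31.9% in F1 (adjusted p = 0.0045). Here the choice of comparison mattered: D. melanogaster itself stood at 30.7% ± 1.10 and 13.6% ± 2.83 at these sites, below F1 and below the mixed parents, which stood at 42.2% ± 2.20 and 29.4% ± 8.41 (SD, n = 2 each). With D. melanogaster in place of F1 the changes were -4.81 points (adjusted p = 0.0736) and -0.560 points (adjusted p = 0.917), the test being the same quasi-binomial regression. The D. sechellia libraries held 110 D. melanogaster-assigned reads at 13262562 and 1 at 13262386, and the part of read assignment was not tested.

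**Figure D4:**
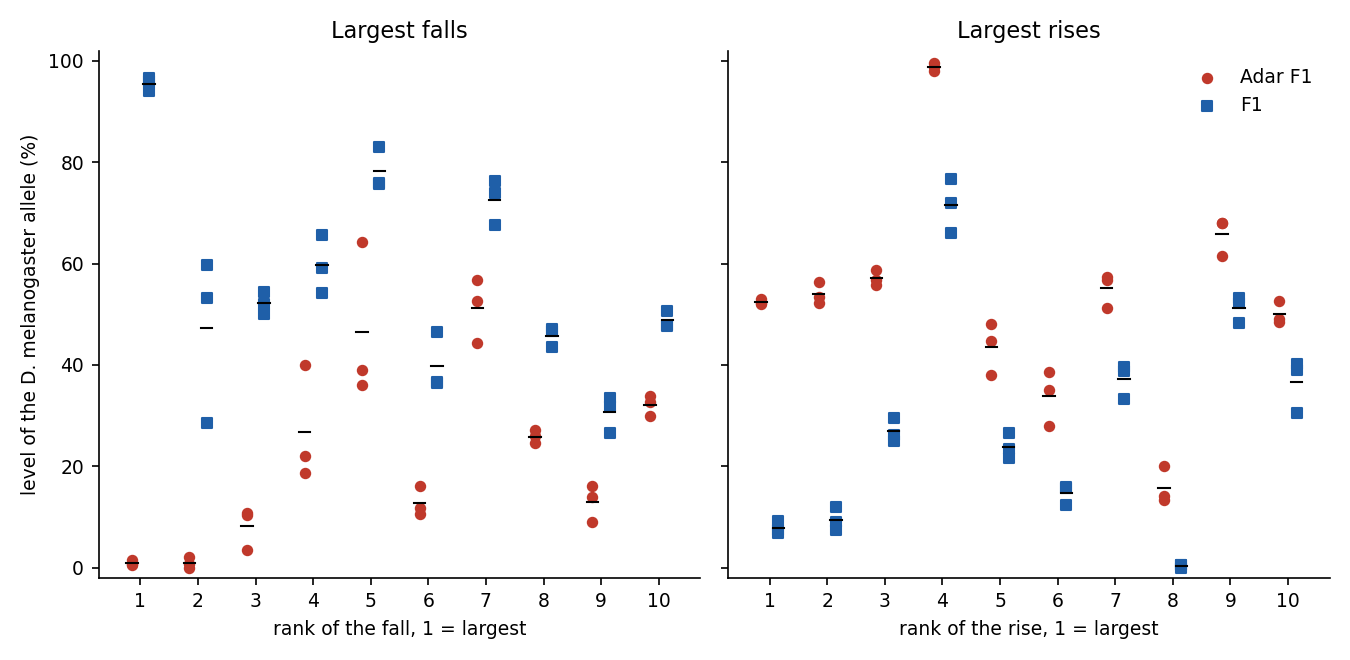
Level of the D. melanogaster allele (y axis, %) in each Adar F1 library (red circles) and F1 library (blue squares) at the 10 largest falls (left) and the 10 largest rises (right), ranked by size on the x axis; black dashes are group means. The groups do not overlap at any of these sites, the first fall runs nearly from end to end of the scale (0.959% in Adar F1, 95.5% in F1), and the Adar F1 points of falls 4 and 5 spread widely because replicate 1 lies above the others.

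The 2 largest rises named by the rule belong to a stretch of 4 neighbouring sites on 2R that all rose, between 11759340 and 11759421. At 11759421 the D. melanogaster allele stood at 52.9%, 52.0% and 52.1% in Adar F1, against 7.43%, 6.79% and 9.15% in F1 (adjusted p = 1.4e-07). At 11759381 it stood at 53.4%, 52.2% and 56.5% in Adar F1, against 7.53%, 8.94% and 11.9% in F1 (adjusted p = 4.19e-07). Levels in D. melanogaster were 4.16% ± 0.949 and 4.43% ± 0.595 at these sites, below the lowest F1 library at both.

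The other 2 sites of this stretch were named after their values were seen. At 11759340 the means were 56.1% in Adar F1 and 12.99% in F1, and at 11759418 they were 22.7% in Adar F1 and 2.78% in F1. The D. sechellia allele at 11759340 was higher in Adar F1 as well, at 35.2% ± 4.18 against 15.3% ± 1.21 in F1 (SD). The difference between alleles did not pass there (adjusted p = 0.0755, quasi-binomial regression). The 3 sites at the far end of this cluster of 533 bases did not pass. They stood at 4.35% in Adar F1 and 4.53% in F1 at 11759849, at 48.6% in Adar F1 and 55.7% in F1 at 11759871, and at 4.397% in Adar F1 and 4.26% in F1 at 11759872. Read numbers moved with the rise: at 11759421 the Adar F1 libraries had 839, 1036 and 746 D. melanogaster reads and the F1 libraries 175, 162 and 164. The D. melanogaster share of reads at 11759381 was 94.4% in Adar F1 and 50.1% in F1, while at 11759849 it was 56.2% in Adar F1 and 66.8% in F1. Their part in the rise was not tested, and sequence differences of the mutant stock in this stretch cannot be told apart from editing.

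At 3L 4590708 the levels were 56.8%, 55.7% and 58.7% in Adar F1, against 26.3%, 24.9% and 29.5% in F1 (adjusted p = 4.62e-06). Mixed parents and D. melanogaster stood near F1, at 28.9% ± 3.91 and 30.9% ± 0.841. At 2R 6643569 the levels were 98.8%, 98.1% and 99.7% in Adar F1, against 66.1%, 72.0% and 76.7% in F1 (adjusted p = 3.59e-06). Nearly all Adar F1 reads there were G. The D. sechellia libraries held 169 D. melanogaster-assigned reads at this site, so it is one where the species are poorly separated.

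At 2L 20872840 the level was 20%, 14.2% and 13.3% in Adar F1, against 0%, 0.452% and 0.524% in F1 (adjusted p = 3.06e-05). The F1 library at 0% had 233 reads, which allow a level of up to 1.29%. D. melanogaster was at 0.835% ± 0.274 and the mixed parents at 0.534% ± 0.0581, so no library without the mutation came near the Adar F1 level. The D. melanogaster share of reads at this site was 99.7% in Adar F1 and 82.0% in F1, and its part in the rise was not tested.

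The other rises were smaller. At 3L 7173538 the levels were 48.1%, 44.8% and 37.9% in Adar F1, against 26.5%, 21.7% and 23.4% in F1 (adjusted p = 0.0015). At X 2006388 they were 35.1%, 38.6% and 28% in Adar F1, against 15.8%, 12.3% and 15.8% in F1 (adjusted p = 0.00114). In both, the lowest Adar F1 library was above the highest F1 library by over 10 points. At X 2006388 the D. sechellia allele stood at 91.1% ± 1.32 in Adar F1 and 91.9% ± 3.29 in F1 (SD). The difference between alleles did not pass there (adjusted p = 0.252, quasi-binomial regression). The D. sechellia libraries held 1 D. melanogaster-assigned read at this site, and the part of read assignment was not tested. The means at 2R 8336191 were 55.2% ± 3.35 in Adar F1 and 37.3% ± 3.45 in F1 (adjusted p = 0.0221), on 54 to 90 reads per library, and the adjusted p was 0.0899 without F1 replicate 1, 0.0576 without F1 replicate 2 and 0.0678 without Adar F1 replicate 3. The means at 2L 7230012 were 65.8% ± 3.802 in Adar F1 and 51.2% ± 2.64 in F1 (adjusted p = 0.00952; 0.0604 against mixed parents and 0.0667 against D. melanogaster), and those at 2L 3762371 were 50.01% ± 2.22 in Adar F1 and 36.6% ± 5.22 in F1 (adjusted p = 0.0039).

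The named and changed sites can also be set beside the mixed parents and D. melanogaster. All Adar F1 libraries lay below all 7 libraries of F1, mixed parents and D. melanogaster at 9 of the 10 largest falls, the exception being 2R 13262386, and above all 7 at the 10 largest rises. Among changed sites covered in all of these groups, 73 of 98 falls lay below all 7 libraries and 18 of 19 rises above them. Over all 488 such sites, 20.7% lay below and 6.76% above. Since 3 of the 7 libraries are the F1 libraries on which the sites were called, nothing is read from these counts against that background. With the mixed parents in place of F1, 73 of 502 sites changed, 58 falling and 15 rising, and 47 of the 94 falls tested again were among them. With D. melanogaster in place of F1, 172 of 521 changed, 132 falling and 40 rising. Of the 97 falls tested again there, 70 fell and 3 rose. Both of these comparisons share the Adar F1 libraries with the one against F1 and were added after the data were seen.

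Of the 5 sites with the highest F1 level under 95% G in D. melanogaster, 2 fell and 3 did not pass. At 2R 6643526 the levels were 98.2%, 98.4% and 99% in Adar F1, against 97.8%, 94.4% and 97.7% in F1 (adjusted p = 0.121). At 2L 9717614 they were 92.1%, 92.3% and 92.7% in Adar F1, against 92.5%, 89.2% and 91.2% in F1 (adjusted p = 0.476). The groups overlapped or nearly touched at both, and the differences were 1.93 ± 1.15 and 1.35 ± 0.979 points (SE).

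At 2R 20802381 the means were 81.5% ± 3.23 in Adar F1 and 87.7% ± 3.77 in F1 (adjusted p = 0.0804; 0.00191 without Adar F1 replicate 1). At 2R 18279015 the level fell to 73.6% ± 3.42 in Adar F1, against 85.2% ± 0.415 in F1 (adjusted p = 0.0045; 0.252 against mixed parents and 0.499 against D. melanogaster). At 3R 1062054 it fell to 83.9% ± 3.22 in Adar F1, against 90.2% ± 2.52 in F1 (adjusted p = 0.0393), but this call was lost without any one of F1 replicates 1 or 3 or Adar F1 replicates 2 or 3 (adjusted p = 0.112 to 0.145). This last site is also the one where F1 stood above the mixed parents. Set against mixed parents or D. melanogaster, Adar F1 was higher there, by 8.45 points (adjusted p = 0.059) and 7.13 points (adjusted p = 0.0237).

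Of the 64 clusters with at least 3 tested sites, every site was lower in Adar F1 in 17, every site was higher in 3, and 44 held sites in both directions. Falls came 2 or more to a cluster in 16 clusters and rises in 3, and 2 clusters held both a fall and a rise. Sites of a cluster can share amplicons and reads, so they are not taken as independent observations.

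The 2R cluster from 13262372 to 13262655 spans 284 bases and held 21 tested sites, of which 14 fell and 0 rose. Its sites ranged widely in what remained. At 13262537 the level was 0%, 0.208% and 0% in Adar F1, against 14.1%, 13.3% and 14.6% in F1, and the 2 libraries at 0% had reads that allow up to 0.585% and 0.613%. At 13262374 the mean was 67.0% in Adar F1 and 79.0% in F1. The same stretch held 4 sites with over 95% G in F1 and in D. melanogaster, at 13262546, 13262611, 13262620 and 13262655. Of these, 13262620 alone passed, with 93.0% in Adar F1 and 99.1% in F1. The sites from 13262542 onward each had 110 or 111 D. melanogaster-assigned reads in the D. sechellia libraries.

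In the 3L cluster from 9826391 to 9826559, 169 bases long, all 12 tested sites were lower in Adar F1 and 8 fell. Adjacent adenosines at 9826400 and 9826401 stood at 12.7% and 26.9% in Adar F1 (means), against 42.3% and 59.6% in F1. Among weakly edited neighbours, 9826394 stood at 4.96% in Adar F1 and 18.9% in F1, and 9826470 at 2.51% in Adar F1 and 11.8% in F1. Others, such as 9826463 at 1.77% in Adar F1 and 4.38% in F1 (adjusted p = 0.0659), did not pass. The last site, 9826559, did not pass, at 49.2%, 25.8% and 27.1% in Adar F1 and 51.1%, 47.1% and 48.3% in F1 (adjusted p = 0.0804). There Adar F1 replicate 1 reached the range of F1.

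On X, a cluster of 10 tested sites from 1267357 to 1267647 split along its length. Its first 4 sites, up to 1267429, did not pass, whereas the 6 sites from 1267604 onward all fell. At 1267622 the level was 5.84% in Adar F1 and 18.1% in F1. Each of these 10 sites had 138 or more D. melanogaster-assigned reads in the D. sechellia libraries. A second X cluster, from 13607572 to 13608063, had 7 tested sites, all lower in Adar F1, of which 6 fell. At 13607572 the level was 3.89% in Adar F1 and 12.4% in F1. Another X cluster, from 1272308 to 1272317, had 5 sites within 10 bases, of which 4 fell, all with 117 or more D. melanogaster-assigned reads in D. sechellia. In Adar F1, 1272311 stood at 19.3% of its F1 level, and the nearby 1272317 at 80.4%.

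**Figure D5:**
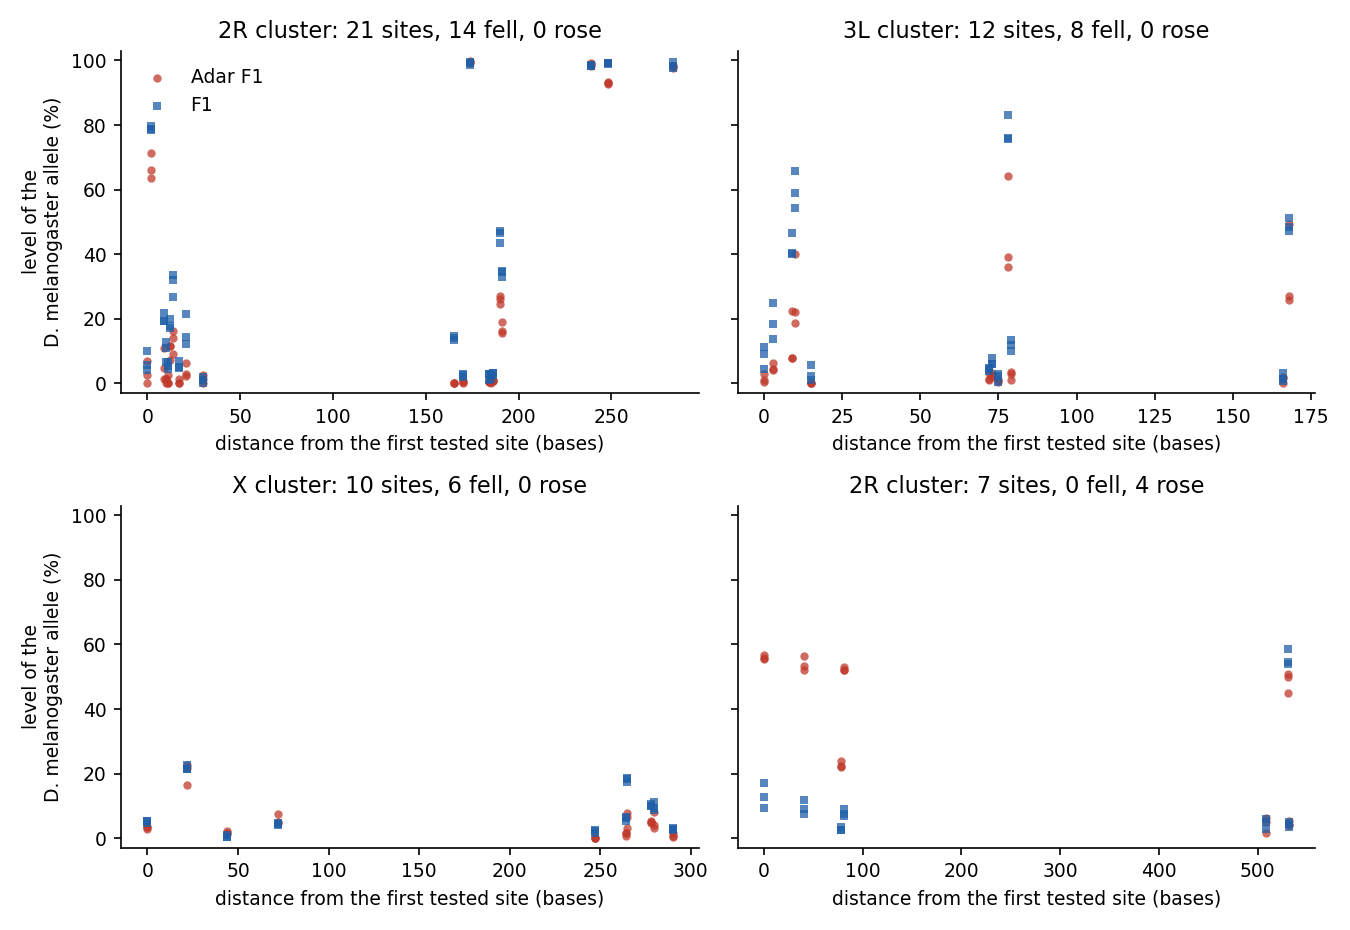
Level of the D. melanogaster allele (y axis, %) in each Adar F1 library (red circles) and F1 library (blue squares) at the tested sites of 4 clusters, by distance in bases from the cluster's first tested site (x axis). In the clusters with 14, 8 and 6 falls the red circles lie below the blue squares at most sites but by different amounts, and in the 2R cluster with 4 rises the first 4 sites lie far higher in Adar F1 while the last 3 overlap or nearly do.

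Some of the largest differences between group means did not pass because Adar F1 libraries differed among themselves, and these were picked out after their values were seen. At X 4253674 the D. melanogaster allele read as G in 10.4%, 100% and 97.1% of reads in Adar F1, against 5.13%, 11.4% and 7.69% in F1 (adjusted p = 0.147). Replicates 2 and 3 were nearly all G, and replicate 1 was within the range of F1. The sequence of the mutant stock is not in the tables, so editing and a G in its genome cannot be told apart here or at the next site. The D. sechellia allele at X 4253674 stood at 94.0% ± 7.58 in Adar F1 and 93.3% ± 4.05 in F1 (SD), and the part of read assignment was not tested. At X 19535625 the levels were 100%, 10.7% and 17.1% in Adar F1, against 16.2%, 16.3% and 16.7% in F1 (adjusted p = 0.276), and here it was replicate 1 that was all G. At the neighbouring X 19535621 they were 64.8%, 25.3% and 38.4% in Adar F1, against 30.8%, 26.0% and 27.2% in F1 (adjusted p = 0.193). At each of these sites the range of the 3 Adar F1 libraries was wider than that of the 3 F1 libraries.

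The D. sechellia allele of the same libraries was set beside these changes. Whether the change differed between alleles was tested in log odds. At 309 tested sites both alleles had at least 50 reads in all 6 libraries, and the change differed between alleles at 3 of them (0.971%), each time with the D. melanogaster allele higher relative to the other. The unadjusted p was under 0.05 at 27 sites. Unequal changes in points can go uncalled on the log odds scale. At 2R 4771211 the D. melanogaster allele changed by -1.98 points and the D. sechellia allele by -20.2 points, without a call. Both alleles were covered at 48 falls, where the D. melanogaster allele changed by a median of -9.76 points and the D. sechellia allele by a median of -5.95 points. At 43 of the 48, the D. sechellia allele was lower in Adar F1 as well. Both alleles come from the same libraries, and the share over all 309 sites was not taken, so nothing is read from this count. These falls were chosen for their change on the D. melanogaster allele, so the larger median there is no evidence of a difference. The difference between alleles passed the test at 0 of the 48, which does not show that the alleles changed alike. At 5 of the 48 the D. sechellia allele was under 1% in F1 and had almost no room to fall. The largest fall, 2R 6708460, is one of them, with 0.402% ± 0.696 on the D. sechellia allele in Adar F1 and 0% ± 0 in F1 (SD, n = 3; adjusted p = 0.167 for the difference between alleles, in the same regression). Another is 3R 19808079, where the D. melanogaster allele changed by -15.8 points and the D. sechellia allele by 0 points, without a call. Where the D. sechellia allele is near 0%, the library block takes up the change of the other allele. The test can then hardly call a difference, so the 3 of 309 sites do not show how many changes are peculiar to 1 allele.

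At the 8 rises covered on both alleles, the D. melanogaster allele changed by a median of 16.2 points and the other allele by one of 1.86 points, and the change differed by the test at 2 of them. At 3L 4590708 the D. sechellia allele stood at 33.2% ± 2.26 in Adar F1 and 33.0% ± 1.08 in F1 (SD, n = 3), so its change was 29.99 points smaller than that of the D. melanogaster allele (adjusted p = 0.00383). At 2L 3762371 the D. sechellia allele stood at 48.8% ± 5.33 in Adar F1 and 55.8% ± 3.87 in F1, opposite in direction to the D. melanogaster allele (adjusted p = 0.00679). In contrast, at 2R 8336191 it stood at 55.0% ± 6.46 in Adar F1 and 37.1% ± 0.771 in F1, and at 2L 7230012 at 69.3% ± 7.59 in Adar F1 and 51.6% ± 5.55 in F1, close to the D. melanogaster allele in both groups. These 3 sites became 0 without Adar F1 replicate 2 or without F1 replicate 1, with 20 and 19 sites at an unadjusted p under 0.05, and 1 without F1 replicate 2. It was 7 at a coverage minimum of 100 reads and 8 with limma on allele differences.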

How the data were processed

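Editing was measured by mmPCR-seq in 12 head libraries, grouped by their titles. The authors deposited whole-number counts of A and G reads per site and species, per the file headers, with no scaling. The submitters' processing notes name BWA as aligner and dm3 as genome build; how reads were given to one species or the other is not given in the sources used here. Levels were computed from the counts. Library totals ran from 251870 to 398284 reads.

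Each site was fitted with a quasi-binomial logistic regression on the 6 compared libraries. Pearson dispersions were squeezed with limma 3.58.1 (squeezeVar, trend on coverage, at least 1) in R 4.3.3, with a deviance F test and Benjamini-Hochberg adjustment. The comparison between alleles kept the library as a block and tested the difference in log odds, not in points. Differences are Adar F1 minus F1. Coverage of replicate pairs differed by more than counting noise (chi-square per degree of freedom 1.69 to 3.58), so none was taken for a library deposited more than once; this does not show that replicates are biological. The site test was run on simulated data that used the dispersions fitted here. It recovered 26% of changes of 0.5 in log odds, 78% of changes of 1 and 98% of changes of 2. Changes of each size were planted at 50 of the 503 sites, with every site drawn on its own and no shift of whole libraries. Of the calls in this simulation, 1.94% were false. That share depends on these settings and is no estimate for the calls made on the real libraries.

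Named sites are the 10 largest falls and 10 largest rises past the threshold whose groups do not overlap, at most 2 per cluster, and the 5 highest F1 levels under 95% G in D. melanogaster. The members, lists and tests were chosen with earlier results of these data known. Gene lists were not used, because the tables give positions without genes and no annotation was used here. Alternatives are given in the closing section.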

Additional observations from a re-analysis of the deposited data

Results flagged for a closer look

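At 3 sites the change in Adar F1 differed between the alleles by a test of the difference in log odds. This test was the quasi-binomial fit with Benjamini-Hochberg adjustment. Its p-values belong to the log odds, and the points below only give the size. The change of the D. melanogaster allele minus that of the D. sechellia allele was 29.99 points at 3L 4590708 (adjusted p = 0.00383), 20.4 points at 2L 3762371 and 27.3 points at 3R 1062051 (adjusted p = 0.00679 for both). At the last of these the D. melanogaster allele stood at 21.7% ± 1.34 in Adar F1 and 24.9% ± 2.75 in F1, and the D. sechellia allele at 16.5% ± 5.32 and 47.0% ± 7.64 (SD, n = 3 each).

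Reads assigned to D. melanogaster appeared in libraries made from D. sechellia alone, 11647 in replicate 1 and 3485 in replicate 2, or 3.76% and 1.29% of their reads.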

How the results depend on the processing

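The count of 121 changed sites stayed within 1.5 times under 13 of 16 alternatives other than leaving out a library, among them limma, thinning, at least 20 or 100 reads, at least 5% or any level, and a 5-point minimum. Fisher's exact test on pooled counts, which leaves out the spread between libraries, gave 202 (160 falls, 42 rises). The replicate block gave 41 (30 falls, 11 rises) with 2 fewer residual degrees of freedom per site, and, on limma, 14 in place of 8 sites for the change that differs between alleles. Same-numbered libraries deviated together weakly (correlations 0.0737, 0.121 and 0.0233, against -0.106 to 0.00371 for other numbers). This is a hint of pairing from the data, not the design, and the numbers were not taken as pairs. Mixed parents in place of F1 gave 73 (58 falls), and D. melanogaster in place of F1 gave 40 rises. Leaving out each library gave 66 to 194 changed sites, 51 to 162 falls and 15 to 32 rises. The change that differs between alleles was called at 7 sites at 100 reads and 8 with limma, and at 0 to 4 without a library. F1 against mixed parents gave 0 sites with limma (75 at an unadjusted p under 0.05), 0 with the replicate block (19 at an unadjusted p under 0.05) and 0 to 5 without a library, where Fisher's exact test gave 17. The mean difference ran from -2.86 points at levels of at least 5% to -1.35 points, and the median percent of F1 from 81.2 to 87.7%. The sign-flip test over replicate numbers gave an exact p = 0.25 for the mean, the smallest that 3 pairs allow. Of 534 refits of single named sites, 27 lost and 6 gained a call, and 2 turned round, both at 3R 1062054, to 8.45 and 7.13 points against mixed parents and D. melanogaster. The causes were not tested.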
